A study of Mus musculus with 6 samples.

Results

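The genes described here encode the proteins of the large (60S) subunit of the cytosolic ribosome. They were chosen by name alone, as the protein-coding rows whose symbol begins with Rpl or Rplp followed by a digit, and 7 protein-coding rows with pseudogene (-ps) names were left out. The rule gave 52 genes of the 54532 in the deposited table. Of these, 49 were expressed highly enough to be tested and 3 were not (Rpl10l, Rpl36al and Rpl39l). RNA came from the myocardium of C57BL/6 wild type mice aged 18 weeks, and the series describes all the hearts as hypertrophic; how the hypertrophy was produced is not given in the sources used here. The 3 control hearts had received AAV9-EGFP, the adeno-associated virus serotype 9 vector carrying a green fluorescent protein gene. The other 3 had received AAV9-anti-miR-199a TuDs, the same type of vector carrying tough decoys, which are RNA hairpins that sequester a microRNA. These groups are called control and TuD below. The promoter that drives each vector is not given, nor is whether a library is 1 animal or a pool, so p-values measure only the spread between these libraries. The question the design addresses is which transcripts differ in hypertrophic hearts when miR-199a is sequestered.

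The large subunit joins amino acids into protein. Its ribosomal RNA forms the catalytic centre, and its proteins fold that RNA, line the tunnel through which the new chain leaves, bridge to the small subunit and carry the stalk that recruits translation factors. In most mammalian ribosomal protein genes, transcription starts at a C inside a tract of pyrimidines. The resulting terminal oligopyrimidine (TOP) sequence lets the mTORC1 kinase pathway and the RNA-binding protein LARP1 control translation and stability of these messages together. Growth of the heart muscle cell in hypertrophy is known to involve more ribosomes, and heart and skeletal muscle also make Rpl3l, a paralogue that takes the place of Rpl3 in part of the ribosomes.

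Both arms of the microRNA that the decoys target are shown because the seed defines which messages could pair with it. The RefSeq mature sequences (GRCm38.p6), with the seed at bases 2 to 8 in capitals, are as follows.
mmu-miR-199a-5p: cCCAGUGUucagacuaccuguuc
mmu-miR-199a-3p: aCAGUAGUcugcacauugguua
The complement of the 5p seed, ACACTGG, was found on the transcribed strand of the longest annotated 3' UTR (the untranslated end of the message) in 1 of the 49 tested large subunit genes, Rpl22, and in 15.1% of the 9549 tested genes with such a UTR. The complement of the 3p seed, ACTACTG, was found in 0 of the 49, against 7.82% of the tested genes. Large subunit 3' UTRs were short, with a median of 248 bases against 1102 for the tested genes. The Rpl22 match is printed with the 7 matching bases in capitals.
Rpl22: gccggtggccACACTGGaggcctgcac
These matches are letters only and say nothing about binding.

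The 30 bases around the annotated start of 10 large subunit genes are shown because TOP control is read from the first bases of the message. They were taken from RefSeq promoters (GRCm38.p6) for genes among the highest and lowest in fold change and for the stalk. The 16th base of each line is the annotated start, and capitals mark the unbroken run of C and T on the transcribed strand that holds it.
Rpl22l1 (chr3:28805493-28805522, plus strand): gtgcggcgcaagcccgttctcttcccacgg
Rpl23 (chr11:97782425-97782454, minus strand): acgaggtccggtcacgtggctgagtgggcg
Rpl31 (chr1:39367836-39367865, plus strand): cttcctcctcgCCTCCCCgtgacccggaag
Rpl5 (chr5:107900513-107900542, plus strand): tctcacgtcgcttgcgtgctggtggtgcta
Rpl39 (chrX:37085208-37085237, minus strand): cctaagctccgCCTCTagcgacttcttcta
Rplp2 (chr7:141447636-141447665, plus strand): tgcgtcagcgTCTTCCTTTCgccgccggac
Rplp0 (chr5:115559452-115559481, plus strand): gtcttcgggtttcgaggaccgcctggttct
Rpl15 (chr14:18270972-18271001, minus strand): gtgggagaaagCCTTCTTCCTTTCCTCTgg
Rpl3l (chr17:24727811-24727840, plus strand): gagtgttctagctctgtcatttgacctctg
Rpl7l1 (chr17:46782642-46782671, minus strand): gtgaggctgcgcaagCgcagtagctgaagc
A run of at least 5 pyrimidines that begins with C and holds the annotated start was found in 8 of the 40 large subunit genes in the promoter table, or 20%. The same was true of 8.37% of 7731 tested genes and 7.30% of all 27025 genes in the table. Annotated starts can lie some bases from the starts used in the heart, so no match in a window says nothing about TOP control of that gene. Rpl31 and Rpl39, among the largest rises, and Rpl15, among the smallest, all had a run that holds the start, while Rpl5 and Rpl23 had none in theirs. A second rule asks for at least 5 pyrimidines counted from a C at the annotated start itself, whatever base begins the run. It was met by 7 of the 40 large subunit genes, or 17.5%, and by 3.17% of the tested genes. Rpl15 and Rplp2 met it, whereas Rpl31 and Rpl39 did not.

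Each library held 15.2 to 18.2 M (megareads) recovered from the deposited FPKM values (fragments per kilobase of gene model per megaread). The controls held 18.0 to 18.2 M and the TuD libraries 15.2 to 16.7 M, without overlap. Some features of the libraries moved with the groups. Summed Y-linked transcripts (Ddx3y, Eif2s3y, Kdm5d and Uty) were at 8.32 to 9.59 FPKM in the controls and 12.5 in TuD 3 but at 0.0254 in TuD 1 and 0.00711 in TuD 2; the labels give no sex. Mitochondrial genes took 8.52% ± 3.33 (SD, n = 3) of control reads and 13.7% ± 3.33 (SD, n = 3) of TuD reads, and the groups overlapped. Short messages were higher in TuD hearts in general: over 9579 protein-coding genes the correlation of the log2 fold change with the log of the length of the annotated principal mRNA was -0.44, a value across genes, which are not replicates. Large subunit mRNAs are short (median 772 bases against 2580 for those genes), so the group's count and median after a correction for that trend are given after the main counts, with the genes that lost their calls.

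Large subunit transcripts were higher in TuD hearts as a group. Of the 49 tested, 42 rose, none fell and 7 did not pass (limma on log2 of normalised FPKM plus 0.5, Benjamini-Hochberg adjusted p under 0.05). Among all 10460 tested genes, 15% were called higher, 14.3% lower and 29.3% either; among tested protein-coding genes the shares were 13.5% and 14.9%. All 49 fold changes were positive, with a median log2 fold change of 0.77 (1.70-fold) and quartiles of 0.65 and 0.94, while the median of all tested genes was 0.01. In 45 of the 49 every TuD value lay above every control value, which held for 23.5% of all tested genes. The rise was at least 2-fold in 12 called genes, a size and call reached by 2.18% of all tested genes, from 1.5 to 2-fold in 26 and smaller in 4. In bulk tissue, more cells of a type and more RNA per cell cannot be told apart. Summed normalised FPKM of the 52 genes was 6675, 6997 and 7025 in the controls and 10869.6, 13921 and 10546 in the TuD hearts, or 6899 ± 195 and 11779 ± 1862 (SD, n = 3 each), with no overlap. As a share of reads, which does not divide by gene length, the group took 1.04%, 1.12% and 1.10% in the controls and 1.501%, 1.90% and 1.58% in the TuD hearts.

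**Figure D1:**
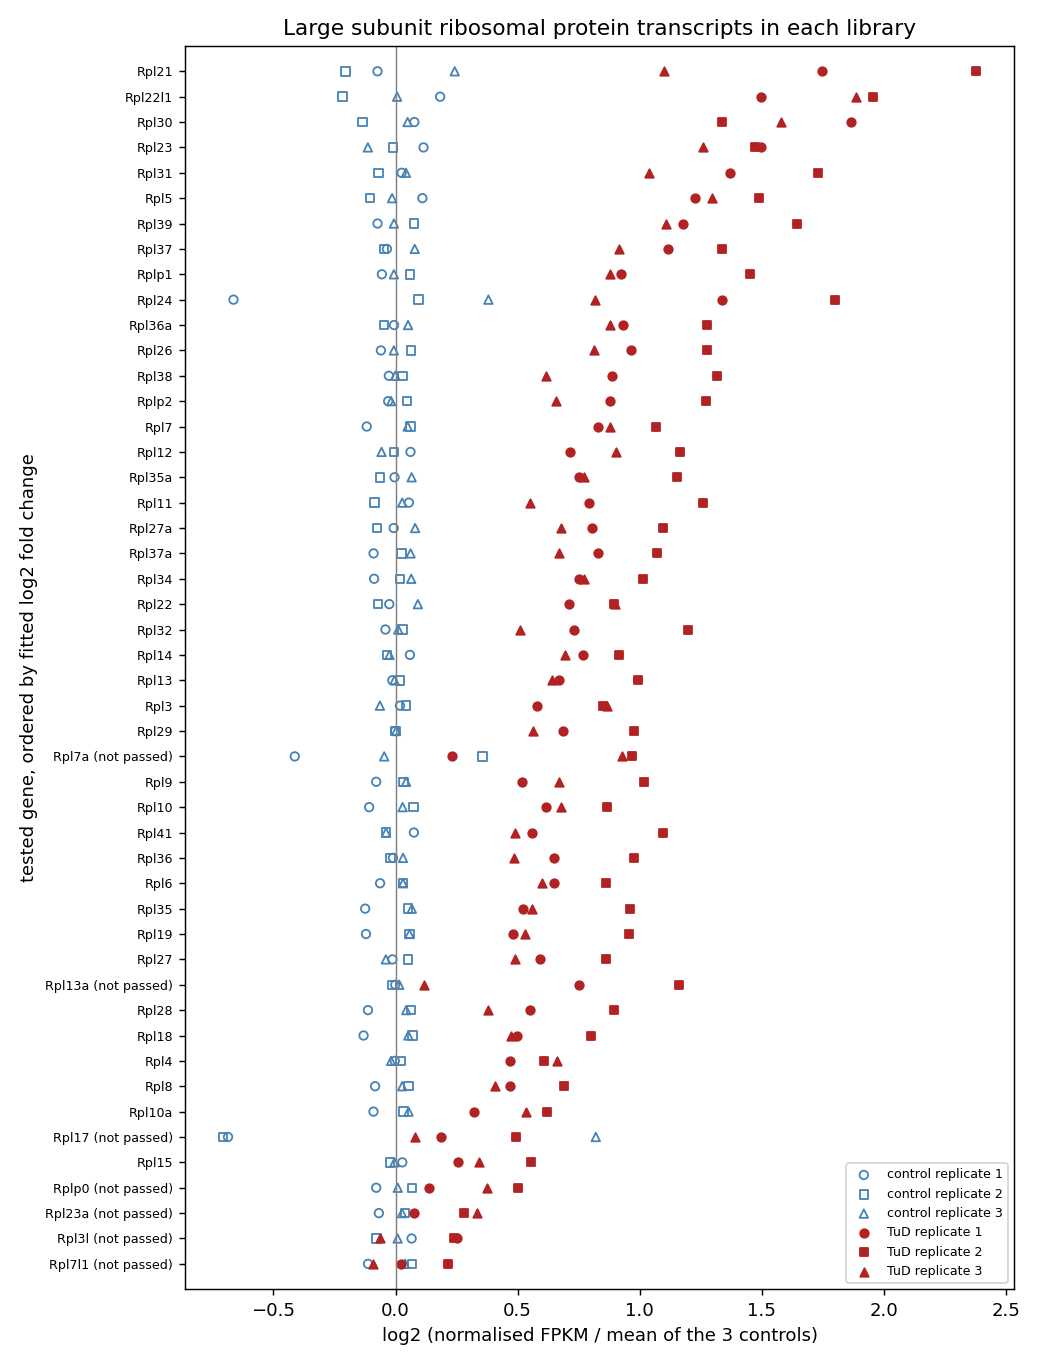
Each row is 1 of 48 of the 49 tested large subunit genes, ordered by fitted log2 fold change, and each symbol is 1 library, placed by log2 of its normalised FPKM over the mean of the 3 controls; open blue symbols are controls and filled red symbols TuD hearts. In 44 rows all red symbols lie to the right of all blue ones, and TuD 2 (squares) is the highest TuD library in 41.

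The TuD libraries were not equal. TuD 2 had the highest TuD value for 42 of the 49 genes, and the lowest lay in TuD 3 for 30 and in TuD 1 for 18. Taken singly, TuD 1, TuD 2 and TuD 3 lay above all 3 controls for 46, 48 and 46 of the 49 genes, near the upper limit in each library. The matching share of all tested genes for a single library was not counted, so these counts have no background beside them. A further fit took as a covariate whether summed Y-linked transcripts reached 1 FPKM, called the Y-linked covariate here. Only TuD 1 and TuD 2 did not reach it, so the TuD term of that fit compares TuD 3 alone with the 3 controls. Its median log2 fold change was 0.66, with 47 of the 49 positive. Calls under this setting, here and below, rest on that 1 TuD library. After removal of each library's trend with mRNA length, 24 were called higher (11.3% of all tested genes) and none lower, with a median log2 fold change of 0.31; 43 of the 49 stayed positive. Of the 42, 18 lost the call: Rpl8, Rpl9, Rpl10a, Rpl15, Rpl18, Rpl19, Rpl22, Rpl24, Rpl27, Rpl28, Rpl29, Rpl32, Rpl34, Rpl35a, Rpl36, Rpl38, Rpl41 and Rplp2, with corrected log2 fold changes from -0.057 (Rpl36) to 0.54 (Rpl24). With the Y-linked covariate these 18 also lost the call apart from Rpl22, Rpl34 and Rpl35a, and so did Rpl11 and Rpl35, among others. The parts of Y-linked expression and message length in the rise were not tested beyond these fits.

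Read by message length, large subunit genes lay above other coding genes in each range. With a principal mRNA under 600 bases, 16 of 17 were called higher, with a median log2 fold change of 0.88, against 62.1% of 203 other coding genes and a median of 0.70. From 600 to 1000 bases, the count was 16 of 18 with a median of 0.70, against 44.7% of 660 others and a median of 0.42. From 1000 to 1500 bases, 8 of 12 were called, with a median of 0.75, against 24.1% of 1183 others and a median of 0.22. The longest messages, at 1500 bases or more, were those of Rpl5 and Rpl4, both called, in a range where 7.18% of 7484 others were called. Among the 49 genes themselves, fold change had a Pearson correlation of -0.22 with the log of mRNA length and -0.40 with the log of the control level; these are descriptions across genes that share the same 6 libraries.

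**Figure D2:**
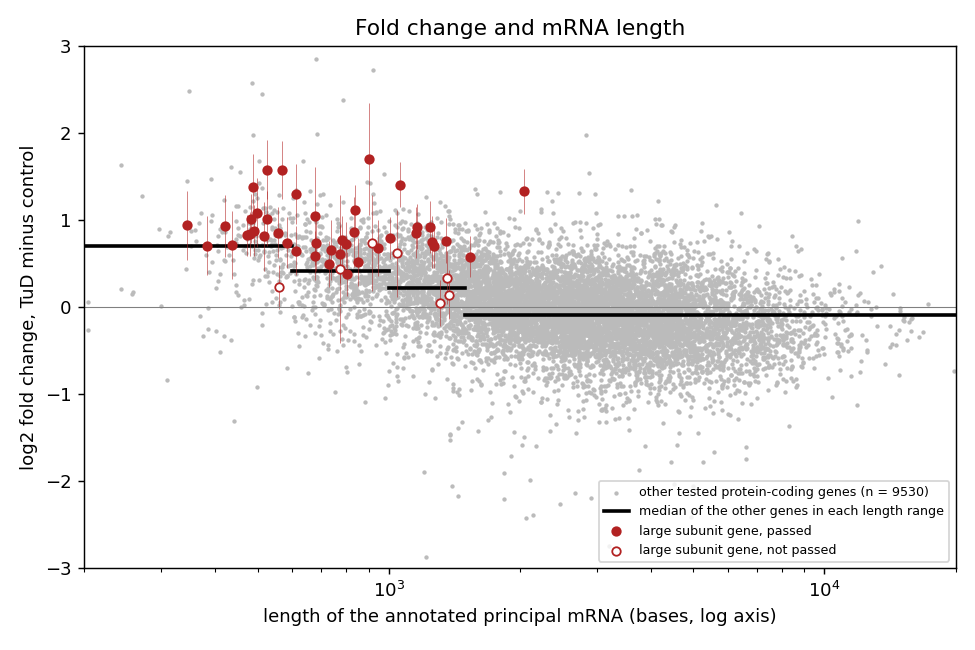
The horizontal log axis is the length of the annotated principal mRNA in bases and the vertical axis the log2 fold change, TuD minus control; red points are the 49 large subunit genes (filled where the test was passed) with 95% confidence intervals, grey points 9530 other tested protein-coding genes, 7 of which lie outside the axes, and black lines the median of the other genes in each length range. The black lines step down from 0.70 under 600 bases to -0.09 at 1500 or more, and most red points lie above the line of their range.

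The stalk is made of Rplp0, which anchors it to the ribosomal RNA, and of Rplp1 and Rplp2, which bind Rplp0 as dimers and recruit the translation factors that use GTP. Rplp1 (chr9:61913284-61914542, minus strand) was at 805, 873 and 833 normalised FPKM in the controls and 1589, 2291 and 1541 in the TuD hearts. Its groups did not overlap, and it rose with a log2 fold change of 1.09 (SE 0.17, adjusted p = 0.00491 by limma). Rplp2 (chr7:141447370-141451585, plus strand) was at 107, 112 and 108 in controls and 200.2, 263 and 172 in TuD hearts, again without overlap, and rose with a log2 fold change of 0.93 (SE 0.16, adjusted p = 0.00574 by limma). Rplp0 (chr5:115559467-115563727, plus strand) was at 601, 665 and 639 in the controls and 698, 900.2 and 824 in the TuD hearts. All its TuD values were above its controls, but a log2 fold change of 0.34 (SE 0.13, adjusted p = 0.0884 by limma) did not pass, and the sign turned under TPM and quantile scaling. With the mRNA length trend removed, Rplp1 was still called higher at 0.44 (adjusted p = 0.0181), whereas Rplp2 at 0.21 (adjusted p = 0.12) and Rplp0 at 0.15 (adjusted p = 0.301) did not pass. Whether the 3 stalk genes differ from one another in fold change was not tested.

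Rpl5 and Rpl11 bind the 5S ribosomal RNA and enter the central protuberance with it; when not in ribosomes, they are known to bind Mdm2, the ubiquitin ligase of p53. Rpl5 (chr5:107900502-107909005, plus strand) was at 46.9, 40.4 and 43.0 normalised FPKM in the controls and 102, 122 and 107 in the TuD hearts. The lowest TuD library was more than 2-fold the highest control, and Rpl5 rose with a log2 fold change of 1.33 (SE 0.11, adjusted p = 0.00159 by limma). It has the longest principal mRNA of the 49, at 2045 bases, and its fold change was 1.33 also after the mRNA length correction (adjusted p = 0.00145). Its message shares 93.8% of its 50-base stretches with other annotated genes, so its reads can be split between rows. Rpl11 (chr4:136028265-136053428, minus strand) was at 79.3, 71.96 and 77.8 in controls and 132, 183 and 112 in TuD hearts, without overlap, and rose with a log2 fold change of 0.86 (SE 0.17, adjusted p = 0.00986 by limma). The genes of the p53 arm did not pass: Cdkn1a, the p53-induced cell cycle inhibitor, was at 13.6 ± 6.47 and 29.5 ± 13.5 (SD, n = 3 each; adjusted p = 0.0989), Mdm2 at 5.92 ± 0.863 and 5.42 ± 0.855 (adjusted p = 0.574) and Trp53 at 4.86 ± 1.11 and 4.63 ± 1.74 (adjusted p = 0.794), all by limma.

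The 6 largest log2 fold changes were those of Rpl21, Rpl22l1, Rpl30, Rpl23, Rpl31 and Rpl5. Rpl21 (chr5:146832890-146837032, plus strand) was at 8.71, 7.95 and 10.8 normalised FPKM in the controls and 30.8, 47.7 and 19.6 in the TuD hearts. TuD 2 was the highest and TuD 3 the lowest of the TuD values, all above the controls, and Rpl21 rose with a log2 fold change of 1.70 (SE 0.28, adjusted p = 0.00565 by limma). Its message shares 50-base stretches with 82 other annotated genes. The 15 rows named as Rpl21 pseudogenes had higher summed levels than Rpl21, with mean FPKM sums of 67.9 (control) and 116 (TuD). Reads can thus be split between these rows and Rpl21, and the size and rank of its change may depend on that split, which was not tested. Rpl30, whose product takes part in a bridge to the small subunit (chr15:34440505-34443640, minus strand), was at 20.5, 17.7 and 20.1 in controls and 70.8, 49.0 and 57.9 in TuD hearts. Here TuD 1 was the highest, the groups stood well apart, and the gene rose with a log2 fold change of 1.57 (SE 0.14, adjusted p = 0.00184 by limma). Rpl23 (chr11:97777527-97782437, minus strand), another ribosomal protein known to bind Mdm2 when free, was at 53.9, 49.4 and 46.0 in controls and 140.4, 138 and 119 in TuD hearts, and rose with a log2 fold change of 1.40 (SE 0.11, adjusted p = 0.00149 by limma). Its values were close together within each group. Rpl31 (chr1:39367842-39371911, plus strand), which lies near the mouth of the exit tunnel, was at 85.3, 79.9 and 86.4 in controls and 217, 278 and 172 in TuD hearts, and rose with a log2 fold change of 1.37 (SE 0.17, adjusted p = 0.00245 by limma). All 6 were also called higher after the mRNA length correction, at log2 fold changes from 0.72 for Rpl31 to 1.33 for Rpl21 and Rpl5.

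Several large subunit genes have a paralogue, and each pair is given together. Rpl3, which reaches into the catalytic centre (chr15:80077791-80091868, minus strand), was at 63.0, 64.2 and 59.6 normalised FPKM in the controls and 93.1, 112 and 114 in the TuD hearts. It rose with a log2 fold change of 0.76 (SE 0.11, adjusted p = 0.00402 by limma), and every TuD library was above every control. Its muscle paralogue Rpl3l (chr17:24727820-24736143, plus strand) was at 211, 191 and 202 in controls and 239, 237 and 193 in TuD hearts. The groups of Rpl3l overlapped, TuD 3 lying between the controls, and a log2 fold change of 0.14 (SE 0.12, adjusted p = 0.4 by limma) did not pass, with a 95% confidence interval from -0.14 to 0.42; its sign turned under TPM and quantile scaling. The ratio of Rpl3l to Rpl3, each per gene length, was 3.34, 2.97 and 3.40 in the controls and 2.57, 2.12 and 1.70 in the TuD hearts. Every TuD ratio was thus below every control ratio. The mean log2 ratio differed by -0.62 (exact two-sided permutation p = 0.1, the smallest that 3 against 3 can give). With each TuD or control library left out in turn it lay between -0.77 and -0.47. Rpl3l made up 76.3% ± 1.33 of the pair in the controls and 67.6% ± 4.55 in the TuD hearts (SD, n = 3 each). The lengths of the principal mRNAs of this pair are close, at 1351 and 1375 bases, and the difference was -0.61 after the mRNA length correction. Rpl3 shares 85.6% of its 50-base stretches with other genes and Rpl3l 0%, so reads that map to several places can fall on Rpl3 and not on Rpl3l.

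**Figure D3:**
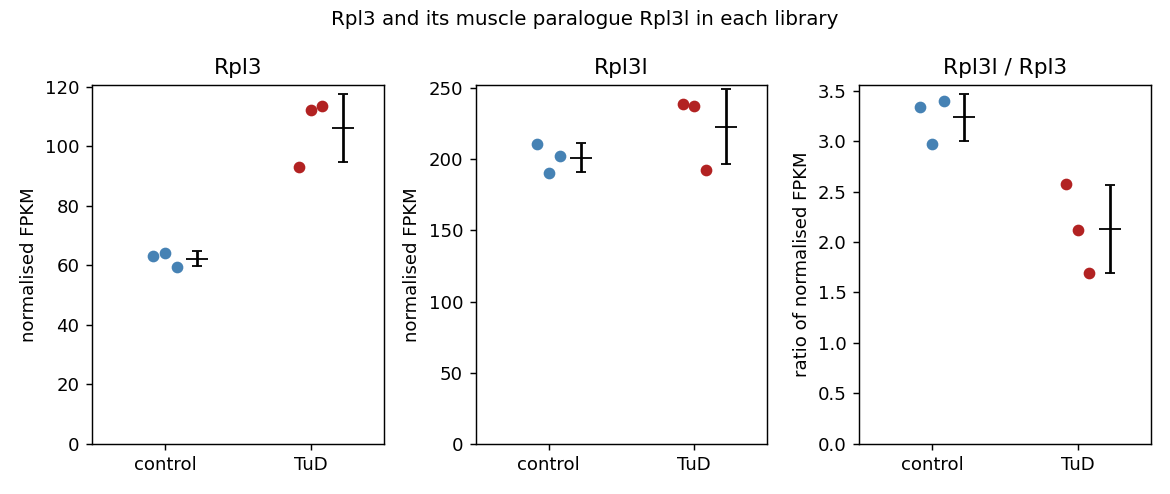
The panels show Rpl3 and Rpl3l in normalised FPKM and the ratio of Rpl3l to Rpl3, with 1 point per library (blue, 3 controls; red, 3 TuD hearts) and bars for the mean and SD; every axis starts at 0. Rpl3 lies higher in all TuD libraries, Rpl3l overlaps between the groups, and the ratio is 2.97 to 3.40 in the controls and 1.70 to 2.57 in the TuD hearts.

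Rpl22, an RNA-binding protein of the subunit (chr4:152325742-152334071, plus strand), was at 34.1, 33.1 and 37.0 normalised FPKM in the controls and 56.8, 64.5 and 64.7 in the TuD hearts and rose with a log2 fold change of 0.83 (SE 0.10, adjusted p = 0.00249 by limma). Its paralogue Rpl22l1 (chr3:28805436-28807424, plus strand) was at much lower levels, 2.45, 1.86 and 2.17 in the controls and 6.10, 8.38 and 7.98 in the TuD hearts. It rests on 73 to 92 reads per control library and 185 to 264 per TuD library, and rose with a log2 fold change of 1.58 (SE 0.15, adjusted p = 0.00194 by limma). Rpl22l1 made up 5.85% ± 0.743 of the pair in the controls and 10.7% ± 0.928 in the TuD hearts (SD, n = 3 each), and both genes of this pair passed the test. Rpl22 is the 1 large subunit gene with a match to the miR-199a-5p seed printed above. Its fold change lay near the median of the group, and after the mRNA length correction it was 0.16 (adjusted p = 0.343 by limma). The match is in its longest annotated 3' UTR, of 1647 bases, whereas the correction uses a principal mRNA of 474 bases, so the 2 refer to different messages.

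Rpl7 (chr1:16101295-16104662, minus strand) was at 115, 130.2 and 129 in the controls and 222, 261 and 229 in the TuD hearts and rose with a log2 fold change of 0.92 (SE 0.11, adjusted p = 0.00245 by limma). Rpl7l1 (chr17:46773907-46782672, minus strand), its paralogue, was at 15.8, 17.9 and 17.6 in controls and 17.4, 19.8 and 16.0 in TuD hearts. The Rpl7l1 values overlapped, and a log2 fold change of 0.05 (SE 0.11, adjusted p = 0.773 by limma) did not pass, with a 95% confidence interval from -0.21 to 0.31; the sign turned under TPM scaling. The log2 ratio of Rpl7l1 to Rpl7 went from -2.87 ± 0.01 in the controls to -3.74 ± 0.08 in the TuD hearts (SD, n = 3 each). For the other pairs the paralogue was near the floor. Rpl10l, known from testis, had 0 reads in all 6 libraries, while Rpl10, which joins the subunit late and sits near the transfer RNA in the catalytic centre, was at 127, 145 and 140.2 in controls and 210.4, 250.4 and 219.7 in TuD hearts, and rose with a log2 fold change of 0.72 (SE 0.11, adjusted p = 0.00473 by limma). Rpl36al had 9 reads over the controls and 1 over the TuD hearts, while Rpl36a was at 27.4, 26.6 and 28.5 in controls and 52.5, 66.5 and 50.6 in TuD hearts, and rose with a log2 fold change of 1.02 (SE 0.12, adjusted p = 0.00241 by limma). Rpl39l had 9 and 6 reads, while Rpl39, a very small protein of the exit tunnel wall (chrX:37082520-37085402, minus strand), was at 40.9, 45.4 and 42.9 in controls and 97.4, 135 and 93.0 in TuD hearts, and rose with a log2 fold change of 1.30 (SE 0.15, adjusted p = 0.00227 by limma).

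Outside Rplp0, Rpl3l and Rpl7l1, the genes that did not pass were Rpl7a, Rpl13a, Rpl17 and Rpl23a. Rpl7a (chr2:26910764-26913318, plus strand) was at 28.4, 48.4 and 36.6 in the controls and 44.4, 73.9 and 71.9 in the TuD hearts. Both groups were widely spread and overlapped, and a log2 fold change of 0.73 (SE 0.24, adjusted p = 0.0522 by limma) narrowly missed the threshold. Rpl13a (chr7:45125558-45128761, minus strand), also known as a regulator of translation when released from the ribosome, was at 4.04, 3.999 and 4.08 in controls and 6.79, 9.03 and 4.38 in TuD hearts. Its controls were nearly equal, TuD 3 was close to them, and the test gave a log2 fold change of 0.62 (SE 0.22, adjusted p = 0.0639 by limma), not past the threshold. Rpl17, a protein of the exit tunnel wall (chr18:75000477-75003381, plus strand), was at 46.8, 46.1 and 133 in controls and 85.7, 106 and 79.5 in TuD hearts. Control 3 was higher than every other library, at more than 2-fold the other controls, and the test gave a log2 fold change of 0.44 (SE 0.37, adjusted p = 0.397 by limma); without that library it was 0.94 (adjusted p = 0.0138). Rpl23a (chr11:78180932-78183584, minus strand), at the tunnel mouth where the signal recognition particle docks, was at 124, 133 and 132 in controls and 137, 157 and 163 in TuD hearts. The TuD values were all above the controls by a narrow margin, with a log2 fold change of 0.23 (SE 0.11, adjusted p = 0.144 by limma), and the sign turned under TPM and quantile scaling. Rpl7a, Rpl17 and Rpl23a share 81.2%, 78.7% and 85.7% of their 50-base stretches with other annotated genes. The rows named as their pseudogenes had mean FPKM sums of 22.6, 274 and 30.8 (control) and 66.7, 459 and 62.4 (TuD). Reads can thus be split between those rows and these genes, and the part of that split in their results was not tested. Rpl15 (chr14:18267823-18271391, minus strand), a protein deep in the ribosomal RNA, had the smallest change among the genes that rose. It was at 78.2, 75.5 and 76.5 in controls and 91.6, 113 and 97.2 in TuD hearts, without overlap, with a log2 fold change of 0.38 (SE 0.11, adjusted p = 0.0327 by limma), and its sign turned under TPM scaling and the mRNA length correction (-0.048).

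Levels within the subunit spanned a wide range although its proteins are present once per ribosome, apart from Rplp1 and Rplp2. On the deposited scale per gene length, control means ran from 1.06 normalised FPKM for Rpl24 to 837 for Rplp1, with a median of 99.3 over the 49 genes, against 152 in the TuD hearts. Rplp1, Rplp0 and Rpl36 had control means over 400, another 20 genes were from 100 to 400, 22 from 10 to 100, and Rpl24, Rpl22l1, Rpl13a and Rpl21 were under 10. The gene model lengths used by the authors have a median of 1781 bases for these genes, and the ratio of model to principal mRNA length has a median of 2.38, so the order depends on the length chosen. Per kilobase of principal mRNA, Rpl41 was the highest and Rplp1 next; the Spearman correlation between the orders was 0.85 over 49 genes. The order of the levels was close in both groups (Spearman 0.97 over the 49 genes between control and TuD means).

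Many large subunit messages share sequence with other genes. Across the 49 genes a median of 61.6% of the 50-base stretches of the principal mRNA also occurs in other annotated genes, and 34 genes share more than 50%. The 4 genes with control means under 10 shared 81.7% (Rpl24), 61.6% (Rpl22l1), 57.4% (Rpl13a) and 55.5% (Rpl21), while Rpl10 at 92.1% and Rpl35 at 95.1% had control means over 100. Rpl24 rests on 63 reads over the 3 controls and 129 over the 3 TuD libraries; it was at 0.669, 1.13 and 1.38 in controls and 2.67, 3.69 and 1.87 in TuD hearts (normalised FPKM), with a log2 fold change of 1.05 (SE 0.25, adjusted p = 0.0168 by limma). That call was lost after the mRNA length correction (0.54, adjusted p = 0.0907), with or without GC, after the gene length correction, with the Y-linked covariate (adjusted p = 0.177) and without the filter on low values. Rpl24 was below 1 FPKM in control 1, whereas the other 48 tested genes reached 1 FPKM in all 6 libraries. The annotation places Gm28037 over exons of Rpl24 and Gm45713 over exons of Rpl13a, and both rows were at 0 in every library. How multiply mapping and overlapping reads were counted is not given in the sources used here. Of the 6 genes that share less than 25% of their stretches (Rpl3l, Rpl8, Rpl7l1, Rpl4, Rpl39 and Rpl22), 4 were called higher (15% of all tested genes), with a median log2 fold change of 0.55. Of the 18 that share at least 75%, 15 were called, with a median of 0.73. Rpl8 (chr15:76904078-76906314, plus strand), which shares 7.86%, was at 309, 339 and 333 in controls and 453, 528 and 433 in TuD hearts, and rose with a log2 fold change of 0.52 (SE 0.12, adjusted p = 0.0154 by limma), a call lost after the mRNA length correction (0.12, adjusted p = 0.276) and with the Y-linked covariate (adjusted p = 0.122). Rpl4 (chr9:64173375-64178666, plus strand), which lines the tunnel and shares 16.5%, was at 193, 196 and 191 in controls and 268, 295 and 306 in TuD hearts, and rose with a log2 fold change of 0.58 (SE 0.10, adjusted p = 0.00684 by limma), and it was also called after the mRNA length correction at 0.45 (adjusted p = 0.0122). The gene bodies of 20 of the 49 hold 39 annotated small nucleolar RNAs, guides for ribosomal RNA modification. Of these hosts 16 were called higher, with a median of 0.79, and 26 of the 29 others, with a median of 0.74, beside 15% of all tested genes.

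Small subunit genes were also higher in TuD hearts, with 31 of 32 tested called higher, against 15% of all tested genes, none lower and a median log2 fold change of 0.80. Rps27a, which encodes ubiquitin fused to a small subunit protein, went from 23.4 ± 0.598 to 77.5 ± 19.8 normalised FPKM (SD, n = 3 each) with a log2 fold change of 1.68 (adjusted p = 0.00194 by limma), and Rps24, Rps28 and Rps23 rose by 1.10, 1.28 and 1.10. After the mRNA length correction 18 of the 32 were called higher (11.3% of all tested genes), and with the Y-linked covariate 18 (6.22%). Genes that other work places under TOP control had a median of 0.46, with 9 of 17 tested called higher, against 15% of all tested genes, and none lower; 6 were called after the mRNA length correction (11.3%) and 3 with the Y-linked covariate (6.22%). Among them were Tpt1, the translationally controlled tumour protein (1.07), the elongation factor subunit Eef1b2 (0.55), the initiation factor subunit Eif3e (0.55) and Rack1, a scaffold on the small subunit (0.61).

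Most factors that build the subunit or control its messages did not pass the test or fell, which also held for most tested genes. Of 37 tested large subunit assembly factors, 7 rose, 2 fell and 28 did not pass, beside 15% of all tested genes called higher and 14.3% lower. The list's median log2 fold change was 0.12, and values in parentheses here are also log2 fold changes. Nsa2 (0.60), Bccip (0.51), Rpf2 (0.51) and Rpf1 (0.54) rose, and Heatr3 (-0.46), an import factor for Rpl5, and Rrs1 (-0.51), which loads the 5S particle with Rpf2, fell. In the list for ribosomal RNA synthesis and early processing, 1 of 17 rose, the nucleolar chaperone Npm1 (0.60), and 2 fell, the polymerase I initiation factor Rrn3 (-0.36) and the polymerase I subunit Polr1a (-0.37). After the mRNA length correction Npm1 kept its call, while Rrn3 (-0.22, adjusted p = 0.104) and Polr1a (-0.13, adjusted p = 0.414) did not. In the mTORC1 and TOP control list, 1 of 15 rose and 7 fell (15% and 14.3% of all tested genes), with a median of -0.17. The activator Rheb rose by 0.45, while the complex members Mlst8 (-0.69), Mtor (-0.53) and Rptor (-0.47), the inhibitors Tsc1 (-0.58) and Tsc2 (-0.42), the translation repressor Eif4ebp2 (-0.34) and the TOP-binding Larp1 (-0.34) fell. After the mRNA length correction Rheb, Mlst8 and Eif4ebp2 kept their calls, Mtor, Rptor, Tsc1, Tsc2 and Larp1 lost theirs, and Akt1s1, an mTORC1 inhibitor that had not passed, was called lower (adjusted p = 0.0204). Of the 37 assembly factors 6 were then called higher (11.3% of all tested genes) and none lower. Nsa2 and Rpf1 kept their calls, while Bccip (0.28), Rpf2 (0.30), Heatr3 (-0.34) and Rrs1 (-0.50) lost theirs. With the Y-linked covariate Rheb (0.54) and the 7 genes of its list that fell (-0.74 for Mlst8 to -0.29 for Larp1) kept their signs. The 7 assembly factors that rose (0.39 to 0.62) and the 2 that fell (-0.34 and -0.20) also kept theirs. That fit compares TuD 3 alone with the controls. These are transcript levels and carry no measure of mTORC1 activity.

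Markers of the cells in the samples were read beside these values. Of 8 cardiomyocyte markers 4 rose (15% of all tested genes) and none fell, and none kept the call after the mRNA length correction, with a summed level of 27809.7 to 29329.6 normalised FPKM in the controls and 30870 to 37499 in the TuD hearts, so markers of the labelled tissue were abundant in all 6 libraries. None of 7 macrophage markers passed (269 to 331 against 278 to 551 summed), nor did any of 3 tested smooth muscle markers. With the Y-linked covariate the macrophage markers C1qa, C1qb and C1qc had log2 fold changes of 0.93, 1.01 and 0.88, against 0.60, 0.56 and 0.44 without it. Such values for the other macrophage markers are not given here. All 6 lymphocyte markers were too low to be tested (0.973 to 1.17 against 0.851 to 1.74). Of 8 fibroblast markers 2 rose and 1 fell, and of 6 endothelial markers 1 rose. Adipocyte markers summed to 0.158 to 0.848 in the controls and 4.04 to 12.7 in the TuD hearts, with Cfd the 1 tested of 5 (called higher), and erythroid markers to 1142 to 1604 and 1374 to 3292, with 2 of 5 called higher, neither of them after the mRNA length correction. Skeletal muscle markers summed to 0.400 to 0.745 and 1.20 to 2.50, with Myh4 at 0 in every library and Tnni2, the 1 tested of 6, called higher (log2 fold change 1.17, adjusted p = 0.00557 by limma). Cfd and Tnni2 reached 1 FPKM in the TuD libraries alone, so they entered the test through the group where they were high. The fit with the Y-linked covariate compares TuD 3 alone with the controls, and the part of these cell types in the large subunit values was not tested.

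The median fold change of the group stayed positive under all 22 alternative settings, while the number of calls changed. No large subunit gene was called lower under any of them, and the count called higher ran from 23 under TPM scaling, where the median of all genes moved to -0.36 and 4.19% of all tested genes were called higher, to 44 with protein-coding genes alone, where 15.2% of the tested genes were called. Under TPM the large subunit median was 0.38, which is 0.73 above the shifted median of all genes. The count was 42 with unscaled FPKM (14.1% of all tested genes), 34 with quantile normalization (14.1%), 42 with a pseudocount of 0.1 (14.8%) or 1 (15%), and 43 with limma-voom on the recovered reads (15.2%). It was 37 of 51 without the filter on low values (4.45%) and 42 of 47 with a filter at 5 FPKM (20.7%). Without the variance trend it was 42 (14.6%), with robust variances 42 (14.9%) and with the replicate number as a block 42 (14%). The gene length correction gave 36 (11.4%) and the mRNA length and GC correction 25 (8.58%). Leaving out controls 1, 2 and 3 in turn gave 37, 38 and 39 (10.7%, 8.54% and 9.35%), and leaving out TuD 1, 2 and 3 gave 43, 41 and 43 (10.6%, 10.8% and 16.0%). The same 15 genes were called higher under all 22 alternatives: Rpl5, Rpl7, Rpl12, Rpl14, Rpl21, Rpl22l1, Rpl23, Rpl26, Rpl27a, Rpl30, Rpl31, Rpl36a, Rpl37, Rpl39 and Rplp1. How many of all tested genes were called under every alternative was not counted, so this number has no background beside it.

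**Figure D4:**
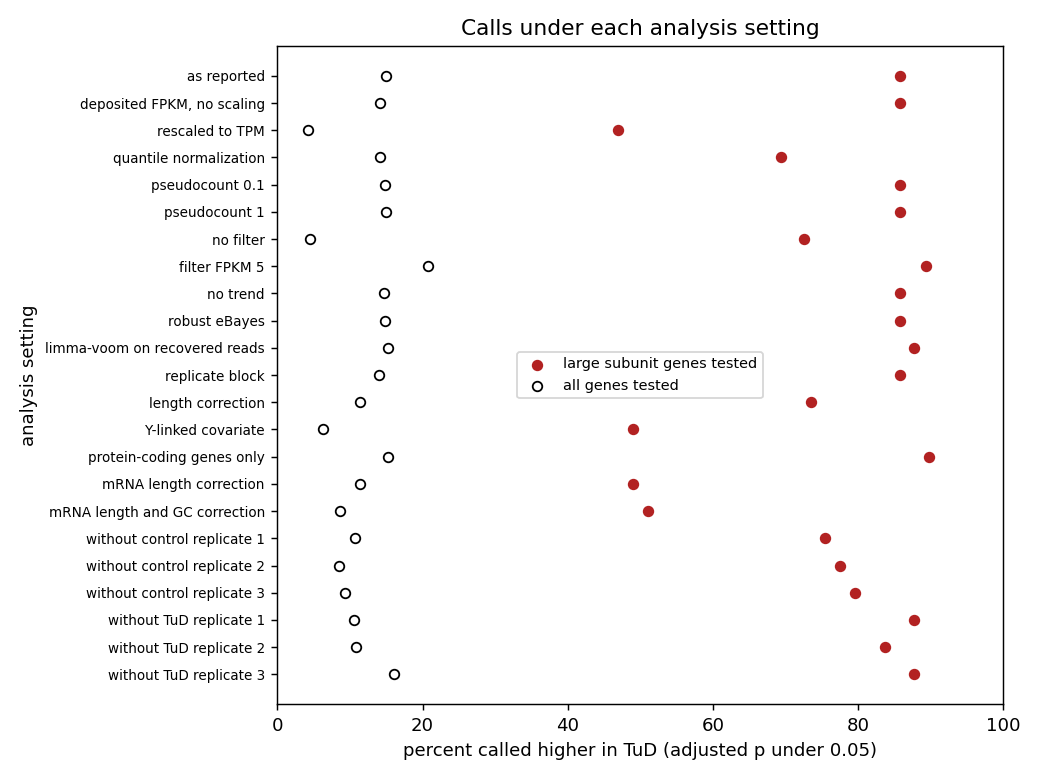
The horizontal axis gives the percentage of genes called higher in TuD hearts at an adjusted p under 0.05, and each row is 1 analysis setting; red points are the tested large subunit genes and open black points all tested genes. The red point lies to the right of the black point in every row, and lies furthest left with TPM scaling (23 of 49 genes).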

How the data were processed

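Total RNA from frozen hearts was made into 6 libraries (3 control, 3 TuD) with an NEBNext Ultra kit, per the labels. The submitters' processing notes name HISAT2 2.0.5, featureCounts 1.5.0-p3 and the mm10 build; strand and multi-mapping settings are not given in the sources used here. The authors deposited FPKM values and gene model lengths for 54532 genes. Multiplying the 2 recovered whole read numbers (100% of values above 0, tolerance 0.05 read), 15.2 to 18.2 M (megareads) per library.

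FPKM columns were scaled by median-of-ratios factors (0.985 to 1.02). The 10460 genes that reached 1 FPKM in 3 or more libraries entered limma 3.58.1 (R 4.3.3, lmFit, eBayes with trend) as log2(normalised FPKM + 0.5). Tests were two-sided, p-values were adjusted by Benjamini-Hochberg over all these genes, and the threshold was 0.05. Count models were not used because the deposited unit is FPKM; limma-voom on the recovered reads was an alternative. The script was tested on simulated data.

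The genes and lists were chosen with earlier results of these data known. Values are given for the 6 highest and 6 lowest fold changes, the stalk genes, paralogue pairs, Rpl5, Rpl11, every gene not passed or not tested, and at most 4 genes of each pathway list by p-value. Rpl4, Rpl8, Rpl24, Rpl36, Rpl41, the 15 genes called under all alternatives, Heatr3, Rrs1, Tsc1, Tsc2, Eif4ebp2 and Larp1 lie outside that rule and were picked with their values in view. Akt1s1 was also picked so. Some further genes are counted but not reported by name here, and 1 of them has no row in the plot by library. GENCODE M21 (GRCm38, the assembly of mm10) held 54409 of the identifiers and all 52 large subunit genes. It supplied UTRs and, as each gene's principal mRNA, the length, GC content and 50-base stretches. RefSeq tables (GRCm38.p6) supplied microRNA and start sequences. The mRNA length corrections (a lowess trend per library, span 0.3) were added after the data were seen.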

Additional observations from a re-analysis of the deposited data

How the results depend on the processing

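The count of 42 large subunit genes called higher became 23 under TPM scaling (4.19% of all tested genes) and 24 with the mRNA length correction (11.3%). It became 25 with the mRNA length and GC correction (8.58%) and lay between 37 and 43 with 1 library left out (8.54% to 16.0%). With the Y-linked covariate, where TuD 3 alone stands against the controls, the median log2 fold change was 0.66. The median log2 fold change of 0.77 became 0.38 under TPM, 0.58 under quantile normalization, 0.56 with the gene length correction, 0.31 with the mRNA length correction and 0.34 with mRNA length and GC, and 0.66 to 0.85 with 1 library left out. The Rpl3l to Rpl3 difference of -0.62 became -0.85 with the gene length correction. The causes of these shifts were not tested.

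Over all genes, 1565 were called higher and 1498 lower; these counts became 438 and 4202 under TPM, where the median of all genes moved, 1010 and 956 without the filter on low values, 651 and 529 with the Y-linked covariate, and 897 and 868 with mRNA length and GC. With 1 library left out they ran from 878 to 1638 and from 718 to 1620.0.

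Signs turned for genes with small changes. Under TPM these were Rplp0 (-0.049), Rpl3l (-0.24), Rpl23a (-0.16), Rpl15 (-0.0046) and Rpl7l1 (-0.33), and under quantile normalization Rplp0 (-0.088), Rpl3l (-0.16) and Rpl23a (-0.00043). With the gene length correction they were Rpl3l (-0.10), Rpl23a (-0.20) and Rpl17 (-0.0076), and with the Y-linked covariate Rpl3l (-0.060) and Rpl7l1 (-0.087). With the mRNA length correction they were Rpl36 (-0.057), Rpl3l (-0.039), Rpl23a (-0.36), Rpl15 (-0.048), Rpl17 (-0.0066) and Rpl7l1 (-0.16), and with mRNA length and GC Rpl23a (-0.33), Rpl17 (-0.043), Rpl7l1 (-0.10) and Rpf2 (-0.094). With 1 library left out the values ran from -0.026 (without TuD 2) to 0.12 for Rpl7l1, which was also below 0 without control 1, from -0.20 to 0.011 (without TuD 2) for Mdm2 and from -0.34 to 0.15 (without TuD 3) for Trp53, which was also above 0 without control 1. No adjusted p among these passed. Over all named genes and alternatives, 1381 values kept their direction and side of the threshold, 156 lost the call, 12 gained it and 28 turned sign.

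Same-numbered libraries had correlations of deviations from the group mean of 0.06, 0.09 and -0.06. Deviations from a mean of 3 libraries are tied to each other, so these values cannot show whether the replicate numbers pair the libraries. With the replicate number as a block, 42 large subunit genes were called higher and none lower. Low depth limits Rpl24, Rpl22l1 and Rpl13a, and the 3 genes not tested.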
